A study of Homo sapiens with 24 samples.

Results

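The genes of the integrated stress response and of the amino acid response were followed across all treatments: 36 genes chosen by name, of the 36337 gene names on the array. Every probe that carries one of these names was read, 46 probes in all. The rule reads names alone, but the list of names was drawn up with earlier results of these data known. A gene was tested when 1 or more groups had a probe of it well above background on each of their 4 arrays, and its brightest such probe then stood for it. This left 34 of the 36 genes. STC2, which encodes the secreted glycoprotein stanniocalcin 2, was well above background on 0 of 24 arrays, and ALDH1L2, a mitochondrial folate enzyme, was so on 5 of 24 arrays but never on all 4 of a group.

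In the integrated stress response, kinases that sense amino acid shortage, unfolded protein in the endoplasmic reticulum (ER), double-stranded RNA or haem deficiency phosphorylate the translation factor eIF2 alpha, which lowers protein synthesis as a whole while translation of ATF4 mRNA goes up. ATF4, a transcription factor of the basic leucine zipper family, then switches on genes for amino acid transporters, for enzymes that make amino acids and for further regulators such as DDIT3 (CHOP), ATF3, TRIB3 and CHAC1. ATF4 is thus set largely by translation, whereas its target genes are read at the level of mRNA, which is what an array measures.

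HT29 cells are an established line of human colon adenocarcinoma. All 6 groups were cultured in DMEM with fetal calf serum and harvested after 6 h, and each was measured on 4 arrays. NT cells were left untreated. C3/C2 cells received the short chain fatty acids propionate (30 mM) and acetate (15 mM). SN cells received the supernatant of a Propionibacterium freudenreichii culture in DMEM, diluted to 1/2, a dilution whose propionate and acetate the C3/C2 mixture was made to match. TRAIL cells received the death ligand TRAIL (100 ng/ml) with 2 µg/ml of anti-Flag M2 antibody, and the TRAIL+C3/C2 and TRAIL+SN cells received both agents. The comparison of SN with C3/C2 therefore asks what the supernatant did beyond what its 2 main acids did. None of the 6 groups received DMEM conditioned in another way.

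Levels are given as log2 of the spot intensity after division by the array's 75th percentile, so that a level of 0 is that percentile, and they compare arrays for 1 gene, not genes with each other. That percentile lay between 743.1 and 1001 intensity units on the NT arrays, 722.4 and 893.6 with C3/C2 or SN, 629.6 and 681.3 with TRAIL, and 452.8 and 540.1 with the co-treatments. Arrays of 1 group correlated at 0.993 to 0.998. All 10 colon epithelium markers looked up were well above background on all 24 arrays. Of 12 markers of fibroblasts, leukocytes and endothelium, 6 were so on all 24 arrays and 3 on none, the fibroblast genes COL1A2, COL3A1 and DCN. The other fibroblast genes looked up, LUM and COL1A1, were so on 24 and 16 arrays. The arrays lay on 4 slides: NT and C3/C2 on slides 1 and 2, SN and TRAIL on slide 3, and both co-treatments on slide 4. SN against C3/C2 thus cannot be told apart from slide 3 against slides 1 and 2, whereas TRAIL+SN against TRAIL+C3/C2 and SN against TRAIL each lie within 1 slide. The study's methods describe 2 independent experiments in duplicate, and the labels do not say which of replicates 1 to 4 belong to 1 experiment. Replicates 3 and 4 both lay above replicates 1 and 2 in 21 of 34 members in each of NT, C3/C2, TRAIL and TRAIL+C3/C2 (19.2% to 32.3% of all genes tested), but in 13 with SN and 14 with TRAIL+SN (22.4% and 27.8%). If these were duplicates, the 4 arrays are not 4 independent experiments, and p-values over them can be too small. An offset between the pairs that both groups share can also make p-values too large, since it stays in the spread. Differences are therefore also given below within each pair of replicates.

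The DNA letters that ATF4 binds together with a C/EBP partner, the C/EBP-ATF response element, are shown for the members that carry them near a start site. The 8 letters TGATGNAA, where N is any base, were searched on both strands of the RefSeq promoter windows of GRCh38.p14, each from 250 bases before to 50 bases after a start site. Of the 36 members, 30 had a window, 49 windows in all. The motif occurred in 9 of the 49 windows (18.4%), and in 1270 of all 35116 windows (3.62%). These 9 windows belonged to 9 members. The members were listed as targets and partners of ATF4, so that the 2 shares are no independent test of them. Each sequence below is printed 5′ to 3′ on the strand on which the motif reads forward, with the motif in capitals.
ASNS, chr7:97872463-97872482, minus strand: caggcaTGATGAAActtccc
CHAC1, chr15:40953256-40953275, minus strand: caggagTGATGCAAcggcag
ATF3, chr1:212565210-212565229, plus strand: tcaggaTGATGGAAggctgt
SLC1A4, chr2:64989386-64989405, minus strand: tggagaTGATGCAAacggga
SLC3A2, chr11:62881730-62881748, minus strand: ggagcTGATGTAAggagtc
JDP2, chr14:75428000-75428019, plus strand: cggggcTGATGCAAcccgtc
CEBPG, chr19:33374065-33374084, plus strand: ggcgtcTGATGCAAcctgcc
SLC1A5, chr19:46784898-46784917, minus strand: agtggcTGATGCAAgctgtc
SLC7A1, chr13:29595668-29595687, minus strand: cactgcTGATGAAAcctggc
The related palindrome TGACGTCA, the cyclic AMP response element, overlapped it in none of these windows and was found in 1 member, PPP1R15A, and in 1.85% of all windows.
PPP1R15A, chr19:48872357-48872376, plus strand: tcttcgTGACGTCAgcacgc
A match is a description of the letters in the window and no measure of binding. The first 6 genes of the list were called higher in SN than in C3/C2 below, and CEBPG, SLC1A5 and SLC7A1 were not. Of all 34 members tested, 15 were called higher there.

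With the supernatant, 15 of the 34 members were higher than with the acids by a fold of 2 or more at an adjusted p under 0.05, and none was lower. Over all 20703 genes tested, 1.27% were called higher and 4.45% lower. Without the fold criterion, 29 members were higher and 1 lower (21.4% and 25.9% of all genes). The median log2 difference of the members was 0.76, against -0.05 over all genes. The same question could be asked within 1 slide in the presence of TRAIL: there 12 of 34 members were higher in TRAIL+SN than in TRAIL+C3/C2 and 1, ATF5, was lower, where 1.00% and 2.51% of all genes were. Without the fold criterion these counts were 24 and 1 (16.3% and 21.2%). All 12 were among the 15, and these 2 comparisons share no array. Across the 34 members the 2 sets of differences correlated with r = 0.968 and rho = 0.955, as a description across genes measured on the same arrays, and over all 20703 genes with r = 0.599 and rho = 0.618. The sign was the same for 30 of 34 members, the others being CBS, CEBPB, PYCR1 and SHMT2. Of the 15 members, 13 were higher by at least a fold of 2 both within replicates 1 and 2 and within replicates 3 and 4, the other two being SESN2 and PCK2. Of the 12 called with TRAIL, 9 were so in both pairs, and SLC7A5 (0.94), PPP1R15A (0.94) and SLC3A2 (0.81) fell short of the fold within replicates 3 and 4. The 15 and the 12 were called on these same arrays, so that the counts by pair are a description and no independent test.

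**Figure D1:**
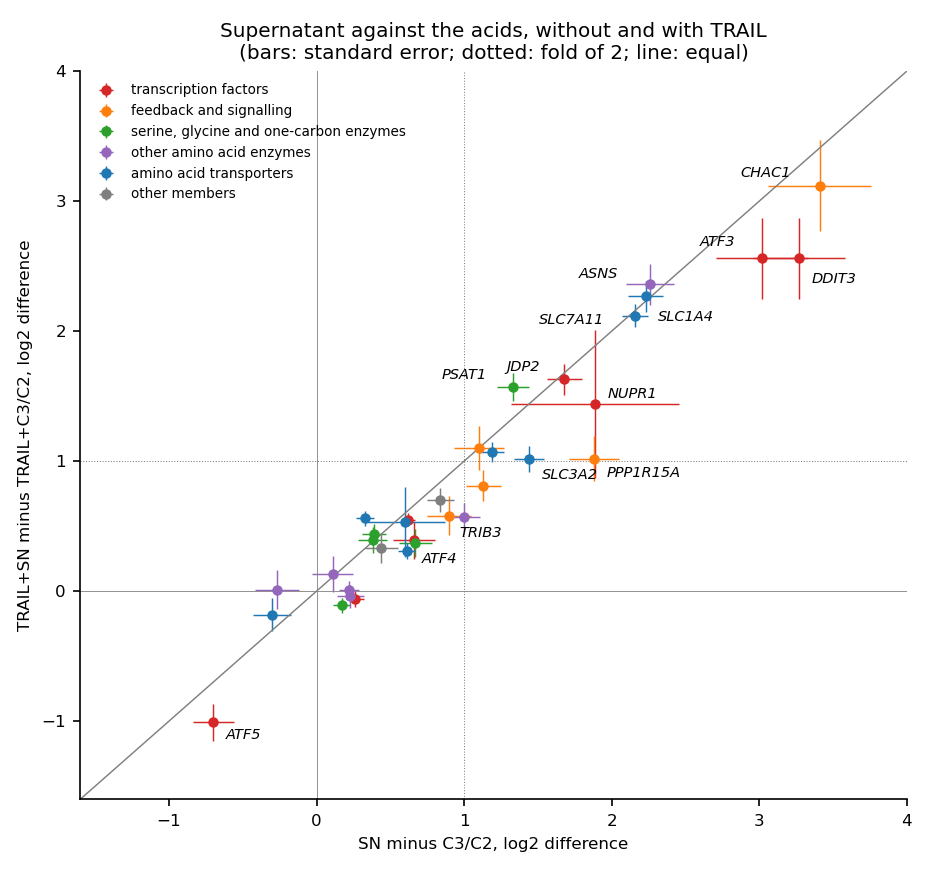
Log2 difference of each of the 34 tested members between SN and C3/C2 (horizontal axis) and between TRAIL+SN and TRAIL+C3/C2 (vertical axis), coloured by role, with standard errors as bars. CHAC1, DDIT3 and ATF3 lie farthest to the upper right, at 3.41, 3.27 and 3.02 without TRAIL and 3.12, 2.56 and 2.56 with it, and ATF5 is the member at the lower left.

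Against untreated cells, C3/C2 raised 8 members and lowered 3 (13.5% and 6.16% of all genes), a split that became 6 and 4 when arrays were scaled to their median or to the spike-in probes. Of all 20703 genes, 1997 were then higher and 2365 lower with median scaling, and 2231 and 1924 with spike-in scaling. SN raised 19 members and lowered 1 (14.2% and 9.76%), or 16 and 1 with median scaling, where JDP2 (0.98), PHGDH (0.95) and SLC6A9 (0.91) fell short of the fold. Median scaling gave 2534 higher and 2522 lower of all 20703 genes for SN. By the adjusted p alone, C3/C2 gave 14 higher and 9 lower members (35.4% and 27.6% of all genes), and SN gave 28 and 2 (35.1% and 34.3%). Both raised CBS, CEBPB, CHAC1, CTH, DDIT4, SESN2 and SLC7A5. SN and not C3/C2 passed the call for ASNS, ATF3, DDIT3, JDP2, PHGDH, PPP1R15A, PSAT1, SLC1A4, SLC1A5, SLC3A2, SLC6A9 and VLDLR, of which PHGDH, SLC1A5, SLC6A9 and VLDLR did not pass in the direct comparison of SN with C3/C2. C3/C2 and not SN passed it for SLC38A2, which depended on the probe and on the fold criterion: SN against NT gave 0.78 (adjusted p = 2.86e-05) on the brightest probe and 1.11 (adjusted p = 3.84e-07), a call, on a second SLC38A2 probe. VLDLR depended on both as well. C3/C2 against NT gave 0.93 (adjusted p = 1.36e-08) on its brightest probe and 1.35 (adjusted p = 0.00137), a call, on a second VLDLR probe. The median difference of the members from NT was 0.19 with C3/C2 and 1.09 with SN, against 0.08 and -0.02 over all genes. The comparisons with NT share the NT arrays.

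**Figure D2:**
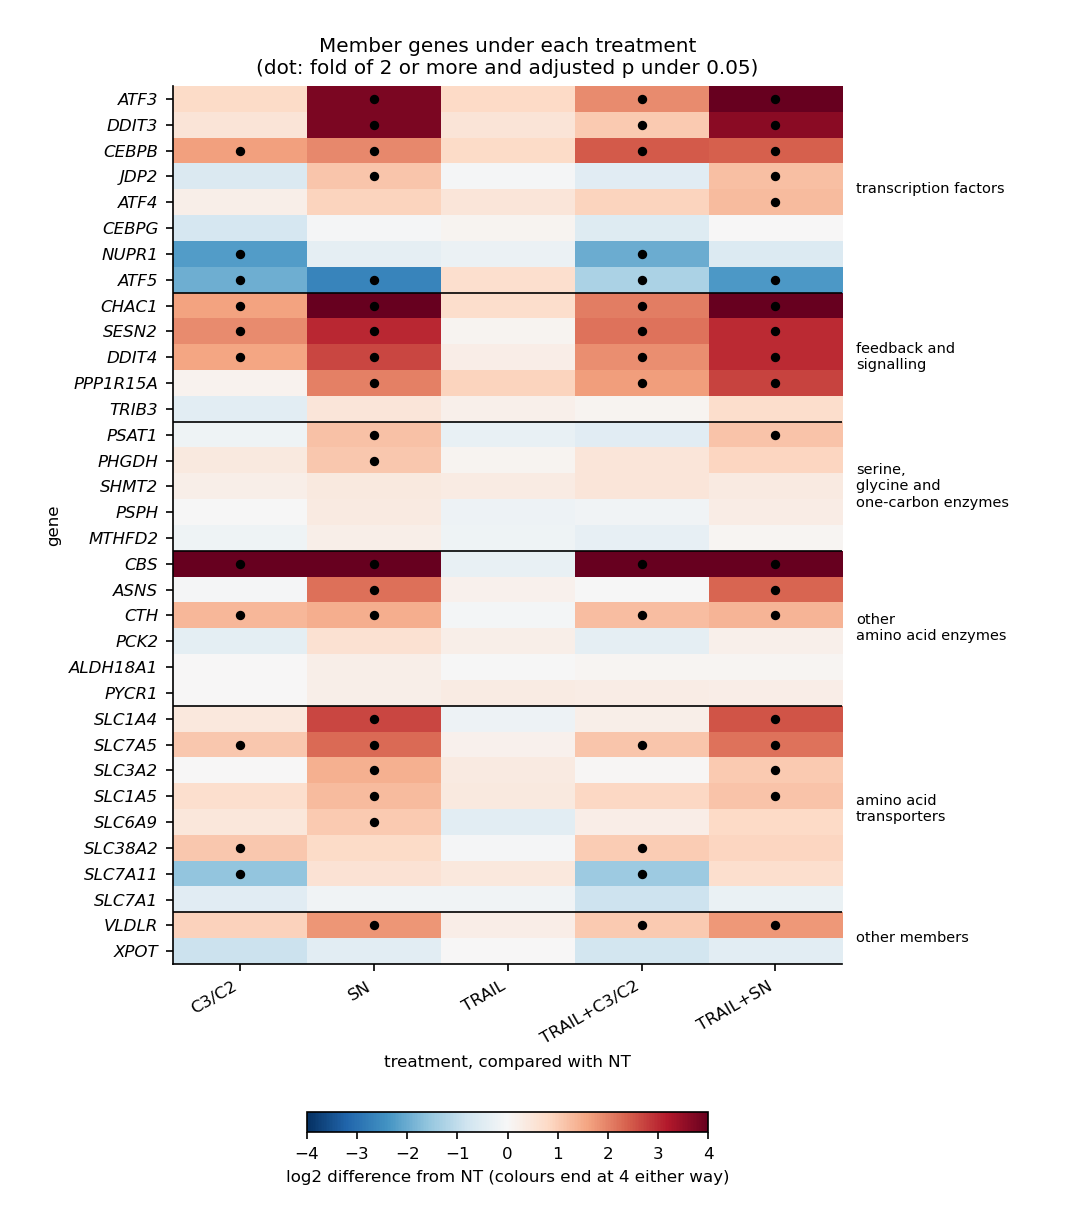
Log2 difference from NT of the 34 tested members (rows, grouped by role) under the 5 treatments (columns), with a dot where the fold was 2 or more and the adjusted p under 0.05. The SN and TRAIL+SN columns carry 20 and 19 dots, the C3/C2 and TRAIL+C3/C2 columns 11 and 15, and the TRAIL column none.

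Of the 8 transcription factors, 4 were higher in SN than in C3/C2 (ATF3, DDIT3, JDP2 and NUPR1), and with TRAIL 3 were higher and 1 lower. ATF4 itself read 6.16, 6.03, 6.37 and 6.33 on the NT arrays, 6.28, 6.15, 6.71 and 6.62 with C3/C2 and 7.08, 7.03, 7.16 and 7.11 with SN. With TRAIL the 4 arrays read 6.39, 6.53, 6.94 and 6.91, with TRAIL+C3/C2 6.94, 6.91, 7.31 and 7.30 and with TRAIL+SN 7.42, 7.40, 7.65 and 7.54. All 4 SN arrays lay above all C3/C2 arrays and all 4 TRAIL+SN arrays above all TRAIL+C3/C2 arrays, but neither difference reached a fold of 2. The log2 difference was 0.66 (SE 0.14, adjusted p = 0.000464) without TRAIL and 0.39 (SE 0.14, adjusted p = 0.0291) with it. ATF4 mRNA reached a fold of 2 over NT only in TRAIL+SN, by 1.28 (SE 0.14, adjusted p = 2.96e-08), a call that ended with spike-in scaling (0.76). At any fold, ATF4 also passed upwards with SN (0.88, adjusted p = 6.75e-06), TRAIL+C3/C2 (0.89, adjusted p = 5.35e-06) and TRAIL (0.47, adjusted p = 0.0102). C3/C2 against NT gave 0.22 (adjusted p = 0.168).

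DDIT3, which encodes CHOP, a factor linked to cell death under prolonged ER stress, showed the second largest difference of the members between SN and C3/C2. It read -1.10, -1.31, -0.83 and -0.63 in NT, -0.74, -0.81, -0.15 and -0.16 with C3/C2 and 2.42, 2.27, 3.38 and 3.16 with SN. With TRAIL the levels were -1.14, -1.11, -0.14 and 0.62, with TRAIL+C3/C2 -0.09, -0.14, 0.22 and 0.31 and with TRAIL+SN 2.53, 2.51, 2.75 and 2.77. The lowest array with supernatant was thus above the highest without it, also among the TRAIL arrays, where replicate 4 stood highest. The difference between SN and C3/C2 was 3.27 (SE 0.31, adjusted p = 4.9e-08), a fold of 9.68, and with TRAIL it was 2.56 (SE 0.31, adjusted p = 1.84e-06), a fold of 5.92. Within replicates 1 and 2 the SN to C3/C2 difference was 3.12, and within replicates 3 and 4 it was 3.43. C3/C2 against NT gave 0.50 (SE 0.31, adjusted p = 0.17), which did not pass the test.

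ATF3, an immediate stress factor that binds many of the sites ATF4 binds, behaved alike on 3 of its 4 probes. Its brightest probe (hg19, chr1:212793856-212793915) read 0.09, 0.06, 0.91 and 0.88 in NT, 0.97, 1.02, 1.45 and 1.54 with C3/C2 and 3.87, 3.88, 4.75 and 4.55 with SN. With TRAIL it read 0.47, 0.66, 1.67 and 2.29, with TRAIL+C3/C2 2.22, 2.23, 2.58 and 2.53 and with TRAIL+SN 4.85, 4.83, 5.03 and 5.09. The groups with supernatant overlapped no other group. The SN to C3/C2 difference was 3.02 (SE 0.31, adjusted p = 1.46e-07), and that with TRAIL 2.56 (SE 0.31, adjusted p = 1.98e-06). The probes at chr1:212792837-212792896 and chr1:212788502-212788561 gave 2.93 and 2.88 for SN against C3/C2. The remaining ATF3 probe, at chr1:212792519-212792578, was well above background on all 24 arrays and gave 0.23 (SE 0.10, adjusted p = 0.0788). Which transcripts that probe reads was not analysed here.

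JDP2, a factor that pairs with JUN and ATF proteins and represses through AP-1 sites, rose with the supernatant and fell with the acids, the latter under a fold of 2. It read 0.30, 0.21, 0.20 and 0.30 in NT, -0.08, -0.27, -0.40 and -0.52 with C3/C2 and 1.54, 1.49, 1.28 and 1.14 with SN, and 0.03, 0.09, 0.19 and 0.45, 0.06, -0.05, -0.41 and -0.34 and 1.61, 1.59, 1.30 and 1.28 in the corresponding TRAIL groups. No array with supernatant overlapped a group without it. SN exceeded C3/C2 by 1.68 (SE 0.12, adjusted p = 1.82e-09) and TRAIL+SN exceeded TRAIL+C3/C2 by 1.63 (SE 0.12, adjusted p = 3.53e-09). Against NT, SN gave 1.11 (SE 0.12, adjusted p = 6.74e-08) and C3/C2 gave -0.57 (SE 0.12, adjusted p = 0.000386). NUPR1, a small stress-induced chromatin protein, differed because it fell with the acids. Its NT levels were -0.56, -0.81, 1.19 and 1.23, its C3/C2 levels -2.57, -2.77, -1.35 and -1.27 and its SN levels -0.32, -0.40, 0.19 and 0.11. In the TRAIL groups it read -1.01, -1.12, 0.94 and 1.29 with TRAIL, -2.44, -2.53, -0.96 and -1.02 with TRAIL+C3/C2 and -0.53, -0.68, 0.01 and 0.01 with TRAIL+SN. Replicates 3 and 4 stood above replicates 1 and 2 in all 6 groups, by more in NT and TRAIL than in the groups with supernatant. C3/C2 lowered NUPR1 against NT by 2.25 (SE 0.57, adjusted p = 0.00171) on the log2 scale, and SN exceeded C3/C2 by 1.89 (SE 0.57, adjusted p = 0.0101). With TRAIL the difference was 1.44 (SE 0.57, adjusted p = 0.054), which missed the threshold. It passed with slide as a fixed block (adjusted p = 0.0283), with median, quantile or spike-in scaling (adjusted p = 0.0363, 0.0458 and 0.0247), with the filter on all arrays (adjusted p = 0.0426), and without TRAIL+C3/C2 replicate 3 or 4 (adjusted p = 0.0397 and 0.0427). It was 1.88 within replicates 1 and 2 and 0.99 within replicates 3 and 4. SN against NT gave -0.37 (SE 0.57, adjusted p = 0.586), 0.33 within replicates 1 and 2 and -1.06 within replicates 3 and 4.

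The remaining transcription factors were not called higher in SN than in C3/C2. ATF5, an ATF4 relative that is also raised by eIF2 phosphorylation, was lower with both agents: it lay between 0.86 and 1.07 in NT, -1.25 and -0.83 with C3/C2, and -1.83 and -1.52 with SN. The difference from NT was -1.94 (SE 0.14, adjusted p = 6.48e-11) with C3/C2 and -2.64 (SE 0.14, adjusted p = 3.43e-13) with SN. TRAIL+SN lay below TRAIL+C3/C2 by 1.01 (SE 0.14, adjusted p = 6.96e-06), a call just at the fold of 2 that ended with normexp background correction, median scaling or spike-in scaling (-0.86 to -0.82), and without TRAIL+C3/C2 replicate 3 or 4 or TRAIL+SN replicate 1 or 2 (-0.95 to -0.91). CEBPB, a leucine zipper partner of ATF4, rose with either agent, by 1.65 (SE 0.06, adjusted p = 1.33e-15) with C3/C2 and 1.91 (SE 0.06, adjusted p = 9.89e-17) with SN. CEBPG, another partner, was not called in any comparison with NT or in SN against C3/C2. Under a fold of 2, C3/C2 lowered CEBPG against NT by 0.67 (SE 0.05, adjusted p = 2.38e-10) on the log2 scale. SN against NT gave -0.05 (SE 0.05, adjusted p = 0.402), and SN against C3/C2 gave 0.62.

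**Figure D3:**
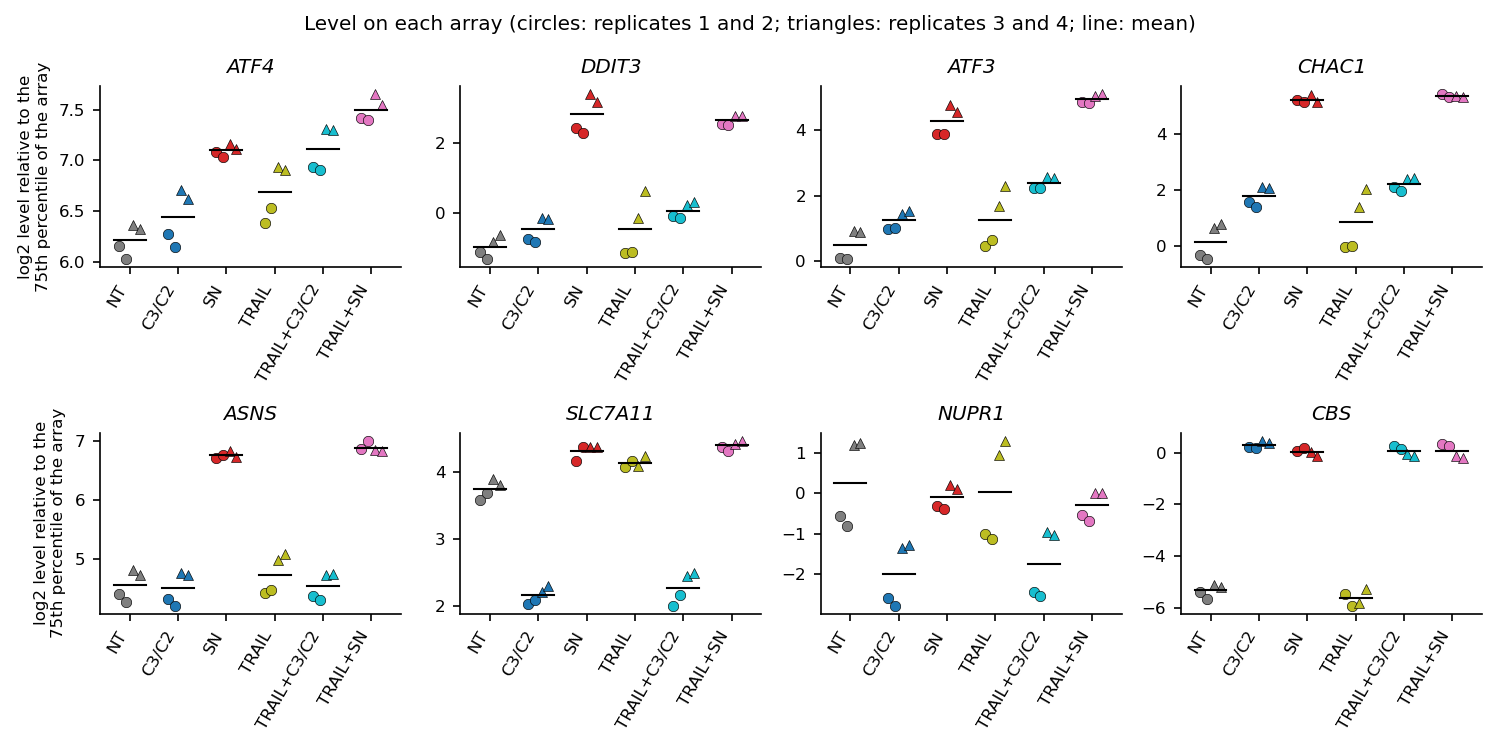
Log2 level, with 0 at an array's 75th percentile, on each of the 24 arrays, for 8 members; circles are replicates 1 and 2, triangles replicates 3 and 4, and lines group means. DDIT3, ATF3, CHAC1 and ASNS are higher on every SN and TRAIL+SN array than on any other array, SLC7A11 and NUPR1 are low in the 2 groups with the acids alone, and CBS is high in all 4 groups with acids or supernatant.

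Of the 5 genes of feedback and signalling, 4 were higher in SN than in C3/C2, and 3 with TRAIL. CHAC1, which cleaves glutathione and is among the targets most strongly induced by ATF4 and CHOP, showed the largest difference of all members between SN and C3/C2. It read -0.31, -0.45, 0.65 and 0.78 in NT, 1.59, 1.40, 2.09 and 2.07 with C3/C2 and 5.20, 5.12, 5.36 and 5.13 with SN. With TRAIL it read -0.01, 0.01, 1.39 and 2.05, with TRAIL+C3/C2 2.09, 1.95, 2.38 and 2.42 and with TRAIL+SN 5.39, 5.29, 5.32 and 5.30. The 8 arrays with supernatant spanned 5.12 to 5.39, whereas the NT and TRAIL arrays spread over more than 1 log2 unit each, with replicates 3 and 4 high. C3/C2 raised CHAC1 by 1.62 (SE 0.35, adjusted p = 0.000412), a fold of 3.07, and SN by 5.03 (SE 0.35, adjusted p = 4.98e-11), a fold of 32.7. SN exceeded C3/C2 by 3.41 (SE 0.35, adjusted p = 1.37e-07), a fold of 10.7, and TRAIL+SN exceeded TRAIL+C3/C2 by 3.12 (SE 0.35, adjusted p = 7.33e-07), a fold of 8.68. A second CHAC1 probe gave 3.42 for the former and 2.87 for the latter.

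PPP1R15A (GADD34), the subunit that directs phosphatase 1 to eIF2 alpha and so ends the response, was raised by the supernatant but also stood high in TRAIL+C3/C2. It read 0.10, 0.03, 0.13 and 0.46 in NT, 0.37, 0.08, 0.46 and 0.44 with C3/C2 and 1.97, 1.88, 2.60 and 2.41 with SN. It read 0.84, 0.77, 1.13 and 1.55 with TRAIL, 1.69, 1.62, 2.06 and 2.08 with TRAIL+C3/C2 and 2.85, 2.66, 3.05 and 2.97 with TRAIL+SN. The order of the group means was NT, C3/C2, TRAIL, TRAIL+C3/C2, SN and TRAIL+SN, and the arrays of the first pair, and those of TRAIL+C3/C2 and SN, overlapped. The supernatant exceeded the acids by 1.88 (SE 0.17, adjusted p = 3.69e-08) without TRAIL and by 1.02 (SE 0.17, adjusted p = 0.000101) with it. The latter, at the threshold, was 0.94 to 0.99 without TRAIL+C3/C2 replicate 1 or 2 or TRAIL+SN replicate 3 or 4, and 0.99 with normexp background correction. The change between these differences was -0.86 (SE 0.25, adjusted p = 0.0245), the largest of the 5 members for which the test of that change passed.

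TRIB3, a pseudokinase that binds ATF4 and holds it back, was called in neither comparison of supernatant with acids. It read 4.52, 4.37, 4.83 and 4.92 in NT, 4.17, 4.12, 4.38 and 4.33 with C3/C2 and 5.20, 5.17, 5.18 and 5.04 with SN. It read 4.58, 4.41, 5.06 and 5.40 with TRAIL, 4.74, 4.68, 4.86 and 4.83 with TRAIL+C3/C2 and 5.36, 5.35, 5.33 and 5.38 with TRAIL+SN. The SN arrays lay above every C3/C2 array, and TRIB3 in C3/C2 overlapped NT. Against NT, C3/C2 gave -0.41 (SE 0.15, adjusted p = 0.0237) and SN gave 0.49 (SE 0.15, adjusted p = 0.00728), both under a fold of 2. The difference between SN and C3/C2 was 0.90 (SE 0.15, adjusted p = 6.3e-05), under a fold of 2, and passed the fold with median scaling (1.07) or spike-in scaling (1.17). With TRAIL it was 0.58 (SE 0.15, adjusted p = 0.00496). DDIT4 (REDD1) and SESN2, both inhibitors of mTORC1 signalling, rose stepwise: DDIT4 lay between 1.27 and 1.85 in NT, 3.02 and 3.27 with C3/C2 and 4.10 and 4.50 with SN, and SESN2 between -1.38 and -1.06, 0.50 and 0.78, and 1.64 and 1.93. C3/C2 raised DDIT4 by 1.58 (SE 0.17, adjusted p = 4.72e-08) and SESN2 by 1.90 (SE 0.12, adjusted p = 1.38e-11). SN exceeded C3/C2 by 1.10 (SE 0.17, adjusted p = 2.19e-05) for DDIT4 and 1.13 (SE 0.12, adjusted p = 2.33e-07) for SESN2, and with TRAIL DDIT4 was called and SESN2 was not.

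Among the amino acid enzymes, the differences between supernatant and acids were carried by few genes. Of 12 enzymes, 11 were tested and 3 were called higher in SN than in C3/C2: ASNS, PSAT1 and PCK2. ASNS, which makes asparagine, read 4.40, 4.27, 4.80 and 4.73 in NT, 4.32, 4.20, 4.75 and 4.73 with C3/C2 and 6.72, 6.76, 6.83 and 6.74 with SN. With TRAIL it read 4.41, 4.46, 4.98 and 5.08, with TRAIL+C3/C2 4.36, 4.30, 4.73 and 4.74 and with TRAIL+SN 6.87, 7.01, 6.86 and 6.84. The acids left ASNS within the NT range but for 1 array just below it, and the supernatant arrays lay at 6.72 or above. The difference between SN and C3/C2 was 2.26 (SE 0.16, adjusted p = 1.06e-09), a fold of 4.8, and with TRAIL 2.36 (SE 0.16, adjusted p = 7.55e-10), a fold of 5.14. C3/C2 against NT gave -0.05 (SE 0.16, adjusted p = 0.803), with a 95% interval from -0.39 to 0.28.

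PSAT1, the aminotransferase of the serine pathway, read 3.16, 3.24, 3.67 and 3.45 in NT, 2.98, 3.12, 3.39 and 3.34 with C3/C2 and 4.51, 4.48, 4.69 and 4.46 with SN. It read 2.93, 2.92, 3.25 and 3.22 with TRAIL, 2.87, 2.79, 3.07 and 3.05 with TRAIL+C3/C2 and 4.44, 4.50, 4.53 and 4.57 with TRAIL+SN. Both groups with supernatant lay above all others, with no overlap. SN exceeded C3/C2 by 1.33 (SE 0.11, adjusted p = 1.03e-08) and TRAIL+SN exceeded TRAIL+C3/C2 by 1.57 (SE 0.11, adjusted p = 1.53e-09), and a second PSAT1 probe gave 1.27 and 1.38. The other enzymes of serine, glycine and one-carbon metabolism that were tested (PHGDH, PSPH, SHMT2 and MTHFD2) differed between SN and C3/C2 by 0.17 to 0.67, all at an adjusted p under 0.05 and none by a fold of 2. PCK2, the mitochondrial enzyme that makes phosphoenolpyruvate, was higher in SN by 1.00 (SE 0.11, adjusted p = 2.86e-07), exactly at the threshold. The call ended without C3/C2 replicate 2, 3 or 4 or SN replicate 1 or 2 (0.93 to 1.00), and the second PCK2 probe gave -0.58 (adjusted p = 0.0137).

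The 2 enzymes of transsulfuration, CBS and CTH, which turn homocysteine into cysteine, were raised by the acids and by the supernatant to about the same level. CBS lay between -5.66 and -5.12 in NT, where 1 of 4 arrays was well above background, between -5.93 and -5.30 with TRAIL, where none was, between 0.18 and 0.47 with C3/C2 and between -0.11 and 0.17 with SN. The fitted difference from NT was 5.66 (SE 0.15, adjusted p = 1.4e-17) with C3/C2 and 5.39 (SE 0.15, adjusted p = 1.64e-17) with SN, and it rests on near-background NT signals. Within slide 3, SN exceeded TRAIL at least 42.3-fold. SN against C3/C2 gave -0.27 (SE 0.15, adjusted p = 0.138), with a 95% interval from -0.58 to 0.04. CTH rose by 1.34 (SE 0.14, adjusted p = 2.62e-08) with C3/C2 and 1.45 (SE 0.14, adjusted p = 6.2e-09) with SN. PYCR1 and ALDH18A1, enzymes of proline synthesis, were not called in any of these comparisons.

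Of the 8 amino acid transporters, 4 were higher in SN than in C3/C2 and the same 4 were higher in TRAIL+SN than in TRAIL+C3/C2: SLC7A11, SLC3A2, SLC7A5 and SLC1A4. SLC7A11 is the cystine and glutamate exchanger xCT, and it fell with the acids. It read 3.58, 3.69, 3.89 and 3.80 in NT, 2.03, 2.09, 2.21 and 2.29 with C3/C2 and 4.17, 4.37, 4.37 and 4.37 with SN. With TRAIL it read 4.07, 4.17, 4.09 and 4.24, with TRAIL+C3/C2 2.00, 2.16, 2.45 and 2.49 and with TRAIL+SN 4.38, 4.32, 4.42 and 4.47. The 8 arrays with acids alone lay below all 16 other arrays. C3/C2 lowered it by 1.58 (SE 0.09, adjusted p = 4.53e-12) on the log2 scale against NT, SN exceeded NT by 0.58 (SE 0.09, adjusted p = 1.24e-05), under a fold of 2, and SN exceeded C3/C2 by 2.16 (SE 0.09, adjusted p = 1.33e-12), a fold of 4.48. With TRAIL the difference was 2.12 (SE 0.09, adjusted p = 1.78e-12).

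SLC3A2 encodes 4F2hc, the heavy chain that SLC7A11 and SLC7A5 need at the cell surface. It read 3.09, 3.04, 3.09 and 3.28 in NT, 3.25, 3.09, 3.05 and 3.09 with C3/C2 and 4.60, 4.73, 4.44 and 4.47 with SN. It read 3.41, 3.47, 3.42 and 3.60 with TRAIL, 3.17, 3.13, 3.13 and 3.24 with TRAIL+C3/C2 and 4.45, 4.29, 3.83 and 4.16 with TRAIL+SN. The arrays with C3/C2 overlapped those of NT, and the arrays with supernatant overlapped no group without it. SN exceeded C3/C2 by 1.44 (SE 0.10, adjusted p = 7.26e-10) and TRAIL+SN exceeded TRAIL+C3/C2 by 1.02 (SE 0.10, adjusted p = 9.93e-08). The latter lies at the threshold and was 0.93 without TRAIL+SN replicate 1 and 0.98 without TRAIL+SN replicate 2. SLC7A5 (LAT1), which carries large neutral amino acids, rose in steps. It read 2.17, 2.26, 2.18 and 2.36 in NT, 3.28, 3.35, 3.37 and 3.32 with C3/C2 and 4.58, 4.68, 4.41 and 4.38 with SN, and 2.47, 2.43, 2.28 and 2.50, 3.39, 3.39, 3.30 and 3.35 and 4.60, 4.56, 4.26 and 4.28 in the matching TRAIL groups. C3/C2 raised it by 1.09 (SE 0.08, adjusted p = 1.52e-10), a call that ended with median scaling (0.78) or spike-in scaling (0.89), and SN exceeded C3/C2 by 1.19 (SE 0.08, adjusted p = 6.46e-10) and with TRAIL by 1.07 (SE 0.08, adjusted p = 3.44e-09).

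SLC1A4 (ASCT1), a carrier of alanine, serine and cysteine, was faint in untreated cells but well above background on all 24 arrays. It read -3.50, -3.62, -3.66 and -3.44 in NT, -2.96, -2.96, -3.30 and -3.27 with C3/C2 and -0.90, -0.64, -1.03 and -0.99 with SN. With TRAIL it read -3.97, -3.72, -3.86 and -3.46, with TRAIL+C3/C2 -3.23, -3.29, -3.37 and -3.43 and with TRAIL+SN -0.79, -0.89, -1.28 and -1.27. The gap between the groups with and without supernatant exceeded the spread within any of them. The difference was 2.23 (SE 0.12, adjusted p = 4.89e-11) without TRAIL and 2.27 (SE 0.12, adjusted p = 4.52e-11) with it. Of the other 4 transporters, SLC38A2 (SNAT2) rose with C3/C2 by 1.07 (SE 0.13, adjusted p = 4.74e-07), a call that ended with median scaling (0.77) or spike-in scaling (0.87), and SN against C3/C2 gave -0.30 (SE 0.13, adjusted p = 0.0764). SLC1A5 (ASCT2) rose with SN by 1.28 (SE 0.06, adjusted p = 6.38e-14) and SLC6A9, a glycine carrier, by 1.04 (SE 0.27, adjusted p = 0.00168). The SLC6A9 call ended without NT replicate 1 (0.81), NT replicate 2 (0.95) or SN replicate 1 (0.98). The arginine carrier SLC7A1 was not called in any comparison. It was lower than in NT, under a fold of 2, with C3/C2 (-0.46, adjusted p = 1.09e-06) and TRAIL+C3/C2 (-0.83, adjusted p = 1.3e-10). Of the last 2 members tested, VLDLR, a lipoprotein receptor, rose with SN by 1.77 (SE 0.09, adjusted p = 3.66e-13) and, under a fold of 2, with C3/C2 by 0.93 (SE 0.09, adjusted p = 1.36e-08). XPOT, the tRNA exporter, was not called. Its level was below NT, under a fold of 2, with C3/C2 (-0.87, adjusted p = 3.79e-07) and SN (-0.43, adjusted p = 0.00131).

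TRAIL alone moved no member by a fold of 2 at an adjusted p under 0.05 in limma, where 0.749% of all genes were higher and 2.18% lower. At any fold, 10 members passed the adjusted p upwards and 1 downwards (20.4% and 13.1% of all genes). Without TRAIL replicate 1, 1 member, ATF3, was called (1.06). TRAIL+C3/C2 raised 12 members and lowered 3 against NT (16.2% and 7.97% of all genes), a split that became 7 and 5 with median scaling and 6 and 10 with spike-in scaling, and TRAIL+SN raised 18 and lowered 1 (16.1% and 10.1%), 12 and 1 with spike-in scaling. Of all 20703 genes, median scaling gave 2280 higher and 3160 lower in TRAIL+C3/C2, and spike-in scaling gave 1589 and 5832. For TRAIL+SN, spike-in scaling gave 1888 higher and 4849 lower. By the adjusted p alone, 17 members were higher and 10 lower in TRAIL+C3/C2 (39.8% and 29.7% of all genes), and 26 and 3 in TRAIL+SN (37.5% and 32.6%). Spike-in scaling moved the median of all genes from 0.10 to -0.61 in the former and from 0.04 to -0.48 in the latter. Within slide 3, SN exceeded TRAIL in 17 members and lay below it in 1, ATF5 (13.1% and 8.04% of all genes), and by the adjusted p alone in 25 and 3 (32.4% and 34.0%). Whether TRAIL changed the difference between supernatant and acids was tested by the interaction: no member passed at a fold of 2 (2.19% of all genes higher and 0.425% lower), and 5 passed at any fold (6.75% and 6.47%), all with a lower value in the presence of TRAIL.

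The other branches of the pathway give a measure of how far these differences extend. Of 16 genes tested of the eIF2 alpha kinases and eIF2 machinery, none was called between SN and C3/C2 or between TRAIL+SN and TRAIL+C3/C2, with a median of 0.12 and 0.08. At any fold, 6 of them passed upwards and 1 downwards in the former (21.4% and 25.9% of all genes) and 1 and 4 in the latter (16.3% and 21.2%). Of 16 tested genes named as other ATF4 or CHOP targets, 2 were called higher in SN than in C3/C2 (FGF21 and GDF15) and none lower, with a median of 0.49. By the adjusted p alone, 12 were higher and 1 lower (21.4% and 25.9% of all genes). With TRAIL, 3 were called higher (FGF21, GDF15 and INHBE) and none lower, and 10 and 1 passed by the adjusted p alone (16.3% and 21.2% of all genes). GDF15, a secreted stress cytokine, read 5.68, 5.69, 6.15 and 6.26 in NT, 5.88, 5.78, 6.15 and 6.22 with C3/C2 and 7.59, 7.69, 7.93 and 7.99 with SN, a difference of 1.79 (SE 0.19, adjusted p = 2.39e-07) between the last 2. FGF21, an endocrine growth factor, was well above background on the 4 SN and the 4 TRAIL+SN arrays and on none of the other 16. It was at least 3.15-fold higher in SN than in C3/C2 and at least 2.12-fold higher in TRAIL+SN than in TRAIL+C3/C2, where a floor was set per array at the lowest signal that was well above background.

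The list of the ER chaperone branch held 19 tested genes, among them those of its sensors ATF6 and IRE1. Of these 19 genes, 2 were called higher in SN than in C3/C2 and none lower, with a median of 0.21. By the adjusted p alone, 11 were higher and 2 lower (21.4% and 25.9% of all genes). With TRAIL, HERPUD1 alone was called (1.38), and ERN1 gave 0.92 (SE 0.17, adjusted p = 0.000226). There 8 genes of the list were higher and 1 lower by the adjusted p alone (16.3% and 21.2% of all genes). HERPUD1, a component of ER-associated degradation, read 4.62, 4.55, 4.75 and 4.82 in NT, 4.30, 4.23, 4.67 and 4.66 with C3/C2 and 5.78, 5.64, 6.62 and 6.39 with SN, and the difference of SN from C3/C2 was 1.64 (SE 0.21, adjusted p = 1.65e-06). ERN1, which encodes IRE1, read -3.84, -4.32, -3.72 and -3.92 with C3/C2 and -2.74, -2.61, -2.85 and -2.72 with SN, a difference of 1.22 (SE 0.17, adjusted p = 7.13e-06). Of 16 tested enzymes of amino acid metabolism not known as ATF4 targets, none was called in either direction between SN and C3/C2, with a median of -0.07. At any fold, 2 passed upwards and 4 downwards (21.4% and 25.9% of all genes). With TRAIL none was called either, and 0 passed upwards and 5 downwards at any fold (16.3% and 21.2% of all genes).

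**Figure D4:**
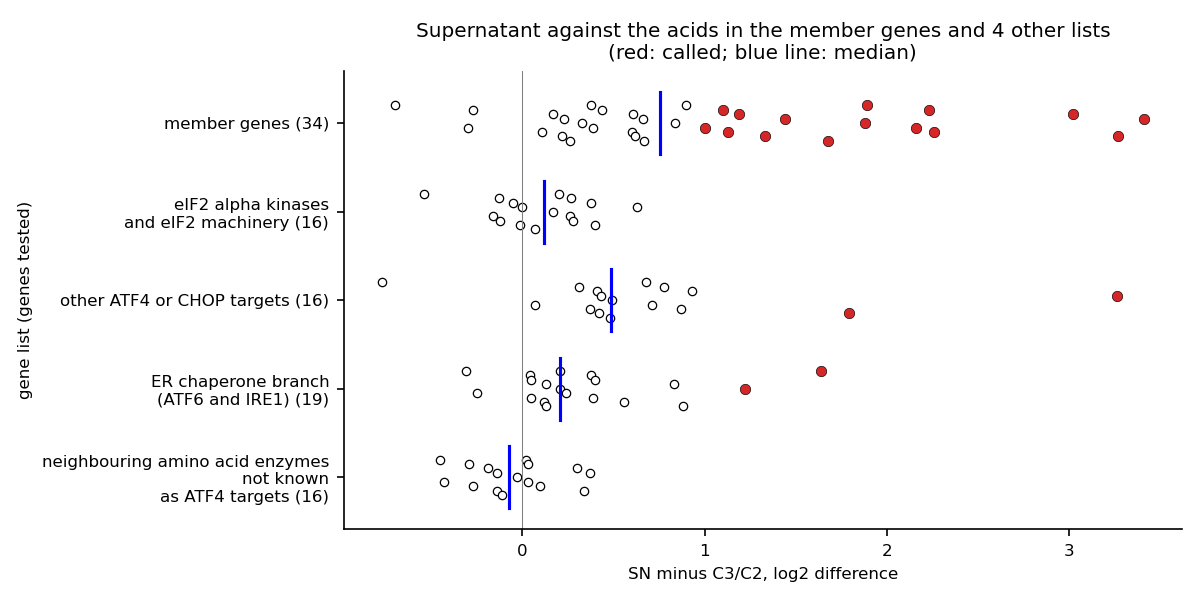
Log2 difference between SN and C3/C2 of every tested gene in the 34 members and in 4 other lists, 1 point a gene; red points passed a fold of 2 and an adjusted p under 0.05, and blue lines mark medians. The medians are 0.76, 0.12, 0.49, 0.21 and -0.07 from top to bottom, and 15, 0, 2, 2 and 0 genes are red.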

How the data were processed

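Total RNA of HT29 cells was labelled with Cy3 and hybridised to 1-colour Agilent arrays, and the files deposited by the authors hold each spot's processed intensity from Agilent Feature Extraction 10.7.3.1, already background-corrected, with probe positions on hg19. Intensities were divided by the 75th percentile of the array and taken as log2, flagged spots and control spots were left out, and spots of 1 probe were averaged. Where all spots of a probe were left out on an array (47 values, none of a member), the mean of its group was used. A probe was kept if 1 or more groups had it well above background on each of their 4 arrays (27957 of 50599), and the brightest probe stood for a gene, which gave 20703 genes. Group means were fitted over all 24 arrays with limma 3.58.1 in R 4.3.3, with 18 residual degrees of freedom. A gene was called at a fold of 2 or more with a Benjamini-Hochberg adjusted p under 0.05 over all genes. SE is the moderated standard error, and intervals are 95% intervals. The number of arrays limits the precision. The authors' own normalized table, with an intensity and a flag for each array, was not used.

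The members, the other gene lists and the tests were chosen with earlier results of these data known. Values on every array are given for ATF4, DDIT3, TRIB3, ASNS and CHAC1 and for the members with the largest called differences between SN and C3/C2. GDF15, FGF21, HERPUD1 and ERN1 are named as the list genes called there. Alternatives were background correction, scaling, filter, probe choice, slide, replicate number, and leaving out single arrays. Comparisons restricted to replicates 1 and 2 or 3 and 4 were added after seeing the data. The fit was tested on simulated data.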

Additional observations from a re-analysis of the deposited data

Results flagged for a closer look

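Over 84 sets of 4 arrays of 1 gene in 1 group, 2 held an array that stood apart by Dixon's criterion, which chance gives for about 1 in 20 sets. ASNS read 7.01 in TRAIL+SN replicate 2, against 6.84 to 6.87 on the other 3 arrays. SLC7A11 read 4.17 in SN replicate 1, against 4.37 on the other 3.

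For 5 members the difference between supernatant and acids was lower with TRAIL than without it, by limma's test of the interaction and under a fold of 2. The change in log2 difference was -0.86 for PPP1R15A (SE 0.25, adjusted p = 0.0245) and -0.42 for SLC3A2 (SE 0.14, adjusted p = 0.0489). It was -0.32 for CEBPB (SE 0.08, adjusted p = 0.014), -0.29 for SLC1A5 (SE 0.08, adjusted p = 0.0237) and -0.28 for SHMT2 (SE 0.09, adjusted p = 0.0374). The contrast without TRAIL spans slides and the one with TRAIL lies within slide 4, so that slide and TRAIL cannot be told apart here.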

How the results depend on the processing

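Across scaling to the array median or the spike-in probes, SN exceeded C3/C2 in 17 members and lay below it in none. Of all 20703 genes, 496 were higher and 632 lower with median scaling, and 678 and 521 with spike-in scaling. In the main fit 262 were higher and 921 lower. Without the fold criterion, 23 members passed for C3/C2 against NT, where 35.4% of all genes passed upwards and 27.6% downwards. TRAIL alone gave 11 members (20.4% and 13.1% of all genes), and the interaction gave 5 (6.75% and 6.47%). Cells given both TRAIL and C3/C2 differed from NT in 27 members (39.8% and 29.7%). Those given both TRAIL and SN did so in 29 (37.5% and 32.6%). SN differed from C3/C2 in 30 members (21.4% and 25.9%) and from TRAIL in 28 (32.4% and 34.0%). Between the co-treatments 25 members passed (16.3% and 21.2%). Such a count alone is no result about the members, since many other genes passed too. Leaving out 1 array gave 0 to 1 members for TRAIL against NT. The sign turned for ATF4 (-0.09) and PPP1R15A (-0.15) in C3/C2 against NT with median scaling, for PPP1R15A there with spike-in scaling (-0.04), for CBS in SN against C3/C2 with spike-in scaling (0.00), for NUPR1 in SN against NT within replicates 1 and 2 (0.33), and for PCK2 in SN against C3/C2 on its other probe (-0.58). The cause was not tested. Leaving out 1 array, C3/C2 against NT ranged from -0.14 to 0.05 for ASNS and from -0.05 to 0.05 for SLC3A2. Samples with the same replicate number deviated together in most pairs of groups: over 60 pairs the correlation of deviations was 0.0616 to 0.475, and 56 exceeded 0.1. Since 4 did not and the labels give the numbers no meaning, they were not taken as a pairing. With the replicate number as a block, 15 members were called in SN against C3/C2, 20 in SN against NT, 11 in C3/C2 against NT and 14 in TRAIL+SN against TRAIL+C3/C2, where NUPR1 then passed (adjusted p = 0.000239). With slide as a random block the counts were unchanged in all 9 comparisons. SN, TRAIL and each co-treatment lay on 1 slide, so this fit could not separate slide from treatment across slides. Signals near background limit CBS in NT and TRAIL, and FGF21 without supernatant.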
